A study of Mus musculus with 9 samples.

Results

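The change in open chromatin that accompanied the hairpin shMed1 #4 was measured by comparing its 3 ATAC-seq libraries with the 3 libraries of a non-targeting control hairpin (NTC), 6 of the 9 libraries of the series. The comparison covered all 75936 peaks of the deposited table, of which 75930 had a mean value of at least 10 and were tested. All libraries came from D2A1-d, a mouse breast carcinoma line kept in serum-containing medium and transduced with a hairpin. The labels give the NTC cells a wild-type genotype and the hairpin cells a Med1 knockdown, and list every sample as untreated otherwise. The titles number them as biological repeats, and nothing says whether these came from separate cultures, so the p-values measure the spread between these samples. The hairpin shMed1 #2 (3 libraries) shared the NTC samples and served only for side-by-side values and for the direct test of #4 against #2.

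MED1 is a subunit of Mediator, the coactivator complex that joins transcription factors bound at enhancers to RNA polymerase II at gene starts. It is best known as the surface through which nuclear receptors contact the complex, and it is abundant at dense groups of active enhancers. In ATAC-seq a transposase cuts DNA that is not wrapped in nucleosomes, so the value of a peak reflects how often that piece of DNA was open, at gene starts and at distant elements alike. A hairpin acts on messenger RNA, so these data cannot show how far Med1 itself was lowered.

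The 6 libraries held 34.8 to 46.4 M reads (M, mega) in peaks, with 40.9 to 46.4 M in NTC and 34.8 to 42.6 M in #4, and a median of 162 to 231 reads per peak, both estimated from the steps between the deposited values. Log2 values of libraries of one group correlated at 0.988 to 0.991. Of the mammary epithelial markers Epcam, Cdh1, Krt8, Krt5, Esr1, Elf5 and Gata3, none had a peak within 1 kb of an end of the gene, and the 2 that had one were low (Krt18 209 ± 30.6 and Krt14 106 ± 17.4 in NTC, SD, n = 3). The gene ends of Vim (4576 ± 122), Fn1 (3358 ± 82.0), Snai2 (2339 ± 94.6) and Twist1 (1845 ± 68.3) had high values, while that of Zeb1 was low (242 ± 46.6) and Cdh2 had no gene-end peak, so 4 of the 6 mesenchymal markers and none of the 9 epithelial ones had a high value there. Among blood, endothelial and neural markers the highest gene-end value was that of Spi1 (797 ± 30.1), and 7 of 13 had no gene-end peak.

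Under shMed1 #4, 13150 peaks were higher than in NTC (17.3% of those tested) and 9152 were lower (12.1%), by limma on log2(value + 1) at a Benjamini-Hochberg adjusted p of 0.05. In 12515 of the higher and 8425 of the lower peaks, all 3 libraries of #4 lay on one side of all 3 NTC libraries. At an adjusted p of 0.01 the counts were 9378 higher and 4639 lower. The changes were small: the called peaks had a median absolute log2 change of 0.35, and only 153 higher and 46 lower peaks had changed by 2-fold or more. The summed values were larger in #4 (43.1, 43.5 and 43.6 M) than in NTC (41.2, 41.3 and 41.5 M). When all libraries were scaled to the same total, the median change of all peaks moved from -0.01 to -0.08 on the log2 scale, and the calls turned to 9329 higher and 14938 lower, from 59.0% to 38.4% higher. In these bulk libraries fewer cells with an open site and less opening per cell cannot be told apart. Which direction prevailed genome-wide therefore depended on the scaling, and the comparisons that follow set classes of peaks against each other under the same scaling. The lower count also fell to 5819 without NTC replicate 2 and to 5500 without NTC replicate 3.

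The classes moved differently. Peaks at annotated gene starts more often fell than rose, with 2007 of 8093 lower (24.8%) and 1220 higher (15.1%), a median log2 change of -0.05. Peaks at the 3 prime end of genes had 9.80% lower and 12.7% higher of 1765. Peaks inside genes rose more often than they fell (19.1% higher and 9.34% lower of 35091), as did intergenic peaks within 50 kb of a gene (16.1% and 11.1% of 20518) and peaks farther away (17.3% and 10.5% of 8096). With equal totals, 39.9% of start peaks were lower and 8.27% higher, while gene-body peaks stood at 15.6% lower and 14.1% higher, intergenic peaks at 18.3% and 11.6%, far peaks at 16.4% and 12.2%, and 3 prime ends at 15.5% and 9.29%. Gene-end peaks of unknown side had 24.3% lower and 13.0% higher of 2367, and 37.3% and 7.60% with equal totals. They include those of chromosome 18 (2624 peaks in all), for which no starts were annotated, so no start peak lies there. The excess of higher calls in gene-body, intergenic, far and 3 prime end peaks thus held on the deposited scale and turned with equal totals. Against these classes, start peaks had the larger excess of lower calls under both scalings. Start peaks were also tested more precisely (median SE 0.06 against 0.13 to 0.15), which affects these shares. The median log2 changes were 0.01 in gene-body, -0.01 in far, -0.02 in intergenic and -0.03 in 3 prime end peaks. The equal-total medians, in the same order, were -0.06, -0.07, -0.09 and -0.10, against -0.12 in start peaks. Around the start itself, peaks centred 0 to 0.2 kb downstream were lower in 29.5% and higher in 10.7% of 3053 cases, against 21.8% and 19.8% of the 4309 peaks centred up to 0.5 kb upstream. Peaks at annotated starts inside longer genes, alternative starts, were lower in 17.0% and higher in 17.9% of 1508.

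The strength of a peak, taken as its mean over the 9 libraries, went with the change both at starts and elsewhere, at different levels. Strength was split into deciles and quintiles of all peaks, and peaks over 1 kb from any gene end are called distal. Distal peaks thus include the 1508 at alternative starts inside genes, whose median value in NTC was 1098. The mean includes the compared libraries, so a raised peak can pass into a higher class, which affects counts and medians alike. Weak peaks are also tested with less precision, which affects the counts. Classes of peaks by NTC values alone were not made. Over all peaks, the top decile (means of 1616 to 9883) had 50.7% higher, 9.48% lower and a median log2 change of 0.12, while the third decile had 6.40% higher, 9.67% lower and a median of -0.09. Among distal peaks alone, the top decile had 71.6% higher and 2.54% lower of 3819, with a median of 0.22. Start peaks of the same top decile had 28.5% higher and 16.6% lower of 3075, with a median of 0.03, and with equal totals their balance turned to 16.4% higher and 31.4% lower. In the eighth decile (means of 518 to 915) the distal peaks had 29.3% higher and 10.0% lower, whereas the start peaks had 5.87% higher and 39.2% lower. The median of start peaks was below that of distal peaks in each of deciles 5 to 10. In deciles 3 and 4 the medians were alike (-0.08 and -0.09 in decile 3, -0.09 for both in decile 4), and in decile 1 start peaks were above distal peaks (0.07 and -0.03).

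**Figure D1:**
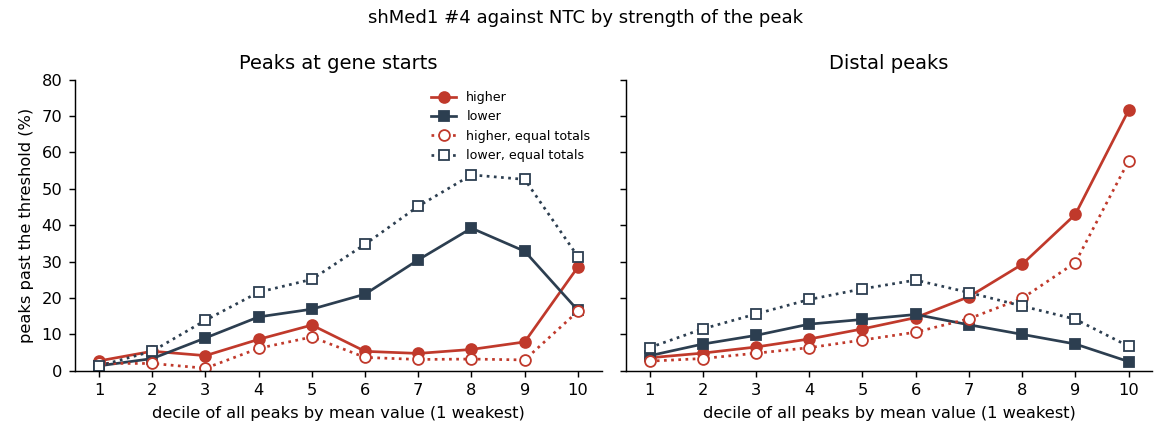
Share of peaks called higher (circles) and lower (squares) in shMed1 #4 against NTC, by decile of peak strength, for peaks at gene starts (left) and distal peaks (right). Solid lines use the deposited scale and dotted lines equal totals, and the top decile of distal peaks reached 71.6% higher while start peaks of the eighth decile reached 39.2% lower.

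In the top quintile of strength, 4770 of 8559 distal peaks were higher (55.7%) and 446 lower (5.21%), with a median log2 change of 0.17. The 5318 start peaks of that quintile had 19.8% higher, 23.5% lower and a median of -0.02. The difference between the medians, 0.19, does not depend on a common scale factor. With equal totals the strong distal peaks still had 42.2% higher and 10.9% lower, with quantile scaling 41.2% and 10.8%, and with cyclic loess 38.5% and 11.8%. Distal peaks of the 3 weaker quintiles had 3520 higher and 4502 lower calls. Without NTC replicate 3 the counts were 2478 and 2432, and without NTC replicate 2 the lower count was 2618. The balance also turned with scalings that even out strength: in the second quintile 7.64% were higher and 11.3% lower on the deposited scale, and 9.92% and 8.31% after quantile scaling.

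Each library's signal showed the same shift without any threshold on p. The strength classes again rest on the mean of all 9 libraries, so raised peaks can be favoured in the strong classes. The gene-end share does not use them. Gene-end peaks, which include starts and 3 prime ends, took 36.9%, 37.4% and 37.8% of all signal in peaks in the NTC libraries and 35.9%, 35.5% and 35.5% in the #4 libraries. Every #4 library was below every NTC library. Distal peaks of the top quintile took 34.3%, 33.6% and 33.3% in NTC and 36.7%, 36.7% and 36.3% in #4, with no overlap in the other direction. The ratio of summed signal in strong distal peaks to that in strong start peaks was 1.29 ± 0.03 in NTC and 1.45 ± 0.01 in #4 (SD, n = 3). In shMed1 #2 it was 1.56 ± 0.06. The top decile of all peaks took 44.1% ± 0.32 in NTC and 46.1% ± 0.40 in #4, and the bottom decile 0.931% ± 0.018 and 0.875% ± 0.024, a difference that changed sign after quantile scaling (0.013 percentage points) and cyclic loess (0.015). In an exact two-sided permutation test each of these differences had p = 0.1, the smallest value 3 against 3 libraries allow, and 0.118 after Benjamini-Hochberg adjustment over 13 such comparisons. The share of peaks over 200 kb from any gene end did not differ (2.12% in both groups, exact permutation p = 1). That of peaks over 50 kb away, 7.32% ± 0.08 against 7.51% ± 0.12, had an exact permutation p of 0.2.

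**Figure D2:**
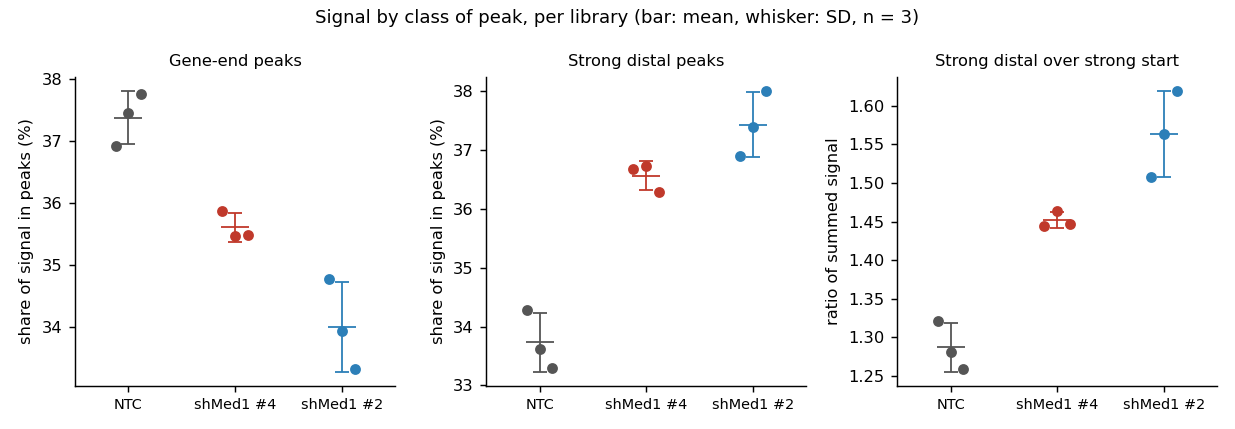
Share of the signal in peaks that lay in gene-end peaks (left) and in distal peaks of the top strength quintile (middle), and the ratio of strong distal to strong start signal (right), for each library of NTC, shMed1 #4 and shMed1 #2. Points are libraries, bars are means and whiskers SDs (n = 3); the vertical axes do not start at 0, and the #4 libraries lie apart from the NTC libraries in all 3 panels.

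Distance to the nearest gene end added to strength. Among distal peaks of the top quintile, 42.5% of those 1 to 5 kb from a gene end were higher, 57.3% at 5 to 20 kb, 62.4% at 20 to 50 kb, 63.0% at 50 to 200 kb and 48.7% beyond 200 kb. The share lower fell from 10.2% at 1 to 5 kb to 2.44% at 50 to 200 kb. In the fourth quintile the share higher went from 17.8% at 1 to 5 kb to 28.7% at 20 to 50 kb and 21.6% beyond 200 kb. In the middle quintile it stayed between 10.1% and 16%. In the upper 3 quintiles, peaks at 1 to 5 kb thus had fewer higher and more lower calls than those at 5 to 200 kb, and the 238 strong peaks beyond 200 kb fell back.

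Higher calls were more frequent in crowded neighbourhoods than in empty ones. Peaks with no other peak within 50 kb were higher in 9.57% and lower in 12% of 2613 cases. Peaks with over 10 others within 50 kb were higher in 22.1% and lower in 12.1% of 18716. With equal totals these shares were 6.20% and 19.4% without a neighbour and 16.4% and 19.5% with over 10, so the excess of higher calls turned while the difference in higher calls between the groups was kept. Within the top quintile of distal peaks the share higher was 49.2% with 1 to 2 neighbours and 58.6% with over 10. The 92 strong distal peaks without any neighbour did not follow that order, with 60.9% higher.

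Neighbouring peaks tended to move together. Of the 75910 pairs of adjacent peaks, 7658 had both members called, and 73.5% of these moved the same way. For pairs up to 1 kb apart the share was 94.2% (389 of 413), for gaps of 5 to 20 kb 70.0%, and beyond 200 kb 59.6%. Peaks 100 places apart along the chromosome, which share the libraries and the overall balance of higher and lower calls, moved the same way in 55.6%. As a description across pairs, the log2 changes of adjacent peaks correlated at r = 0.21 (n = 75910 pairs, which share libraries and, at short gaps, DNA fragments) and at 0.53 for gaps up to 1 kb. A pair of distal peaks moved the same way in 78.0% of cases and a start with its neighbouring distal peak in 60.2%. Start peaks (15.1% higher, 24.8% lower) and distal peaks (17.9% and 10.0%) had opposite balances of calls. The pair types therefore have different background shares, which were not computed, and the 55.6% is over all peaks. Between starts and distal peaks 1 to 5 kb apart, the share was 63.6%, against 84.8% for distal pairs at that gap.

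**Figure D3:**
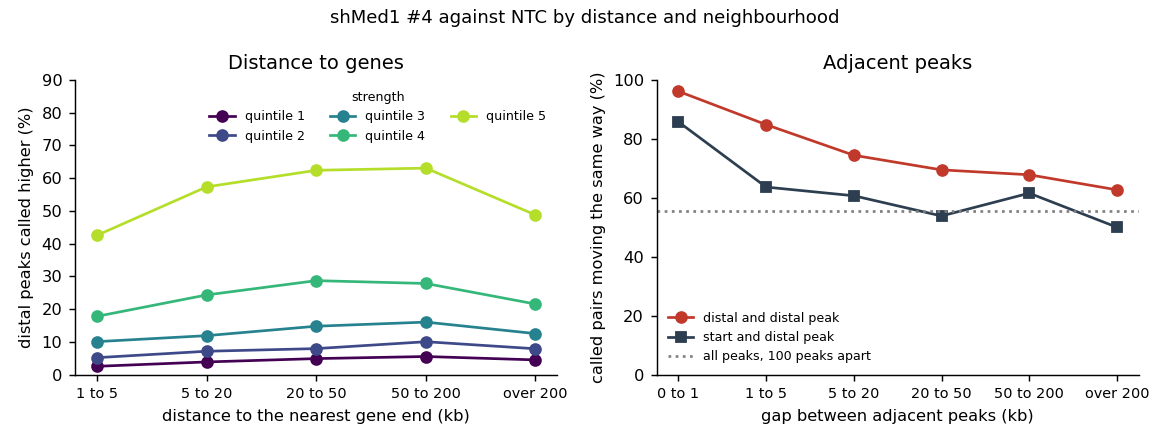
Left, share of distal peaks called higher in shMed1 #4 against NTC by distance to the nearest gene end, with a line per quintile of strength. Right, share of adjacent called pairs that moved the same way by the gap between them. The dotted line is the 55.6% of all peaks 100 places apart, not split by type of pair. Pairs of distal peaks up to 1 kb apart reached 96.1%.

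Starts were also set beside the distal peaks assigned to the same gene. The 1484 genes whose start peak was lower had 6300 assigned distal peaks, of which 17.7% were higher and 11.8% lower. The 902 genes with a higher start had 22.9% higher and 7.13% lower among their distal peaks, and the 3348 genes with a start that passed no threshold had 19.6% and 9.05%. Over all distal peaks the shares were 17.9% higher and 10.0% lower, near those of genes with a lower start, and with equal totals they turned to 13.1% and 16.6%.

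Promoter sequence differed with the direction in which a start moved. Of the start peaks, 7430 had a RefSeq promoter window (GRCm38.p6, 250 bases before to 50 after the gene start). Windows were searched on both strands for 9 short motifs, each counted on its own, so matches of different motifs may overlap. A match describes the letters and is not evidence that a factor was bound. Among the lower starts, 11.6% of windows held AAGATGG, the core of the motif of YY1, a factor that binds promoters and enhancers, against 5.28% of the higher starts, 6.27% of those not called and 6.24% of all 21263 promoter windows searched. The core of the ETS family motif, CCGGAAG, was in 23.8% of lower, 13.6% of higher, 18.9% of uncalled starts and 11.6% of all windows. The CCAAT box, the site of the factor NF-Y, went the other way, in 32.0% of lower, 54.1% of higher, 39.5% of uncalled starts and 38.2% of all windows. Seen from the motif, starts with a CCAAT box were higher in 20.8% and lower in 20.4% of 2957 cases, and starts without it 11.6% and 28.7% of 4473. Starts with the YY1 core were higher in 10.8% and lower in 39.6% of 556, and the other starts in 15.7% and 24.3%. With equal totals, starts with a CCAAT box were 11.8% higher and 34.2% lower, and those without it 6.17% and 45.3%. Starts with the YY1 core were then 5.40% higher and 55.9% lower, and the others 8.67% and 39.7%. Within the top strength quintile the order was the same, with the CCAAT box in 56.7% of higher and 33.9% of lower starts and the YY1 core in 5.41% and 11.9%.

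The remaining motifs separated the calls less. The GC box GGGCGG, bound by SP factors, was in 71.6% of lower and 68.2% of higher starts and 46.2% of all windows. The CRE core TGACGT was in 15.8% and 11.7% (8.49% of all), the E box CACGTG in 12.4% and 8.10% (7.84%), the TATA box TATAAA in 7.52% and 6.25% (12.6%), the AP-1 site TGANTCA in 4.34% and 6.60% (6.99%), and the TEAD site GGAATG in 11.6% and 12% (13.6%). CpG content differed with the call as well, but not in an even order. Starts with 5 to 9 CpG in their window had the largest share higher (22.1%, with 12.8% lower, of 585). Those with 25 to 29 CpG had the largest share lower (30.3%, with 11.9% higher, of 1169). The outer classes fell back from these shares. Starts with 0 to 4 CpG had 60 higher and 30 lower of 353, and those with 30 or more had 272 and 508 of 1815. With equal totals, starts with 5 to 9 CpG turned to 14.4% higher and 20.7% lower, and those with 25 to 29 stood at 6.50% and 48.4%. Lower starts held a median of 24 CpG per window, higher starts 20.5 and uncalled starts 21.

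The matches were not spread evenly over the windows. The YY1 core was most frequent in the 50 bases after the start, at 6.30 matches per 100 windows of lower starts, 2.38 of higher and 2.57 of uncalled starts. In the 50 bases before the start the same 3 groups had 1.22, 0.528 and 0.454. ETS cores peaked in the 50 bases before the start, at 11.6 per 100 windows of lower and 4.84 of higher starts. CCAAT boxes peaked 50 to 100 bases before it, at 34.3 per 100 windows of higher and 13.2 of lower starts.

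**Figure D4:**
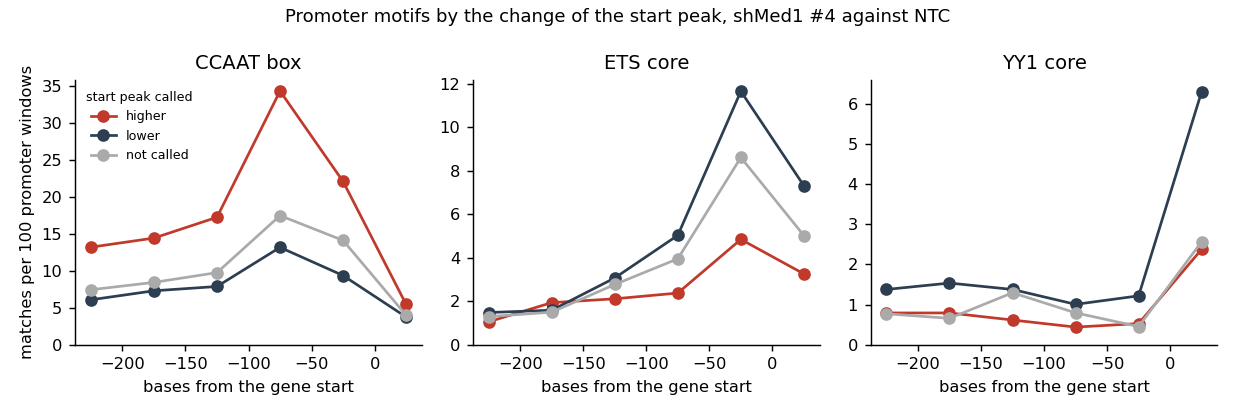
Matches per 100 promoter windows in bins of 50 bases, against the distance from the annotated gene start, for start peaks called higher, lower or not called in shMed1 #4 against NTC. CCAAT boxes reached 34.3 per 100 windows in higher starts, and ETS and YY1 cores reached 11.6 and 6.30 in lower starts.

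The windows below show examples of these 3 motifs and the most lowered named starts, in RefSeq's GRCm38.p6 sequence, 5′ to 3′ in the direction of the gene. Only the motif named for each pair is in capitals, and the lowered Prex1 and Cog4 windows also hold CCAAT, unmarked. The first pair are the 2 lowered gene-end peaks with the largest change that lie at a RefSeq start, with every GC box in capitals, as GGGCGG or, on the other strand, CCGCCC: Prex1, which encodes a guanine nucleotide exchange factor for Rac, at chr2:166713783-166714082 (minus strand), and Rngtt, the enzyme that caps messenger RNA, at chr4:33310061-33310360 (plus strand). The GC box stood 10 times in the Prex1 window and 6 times in that of Rngtt.
Prex1: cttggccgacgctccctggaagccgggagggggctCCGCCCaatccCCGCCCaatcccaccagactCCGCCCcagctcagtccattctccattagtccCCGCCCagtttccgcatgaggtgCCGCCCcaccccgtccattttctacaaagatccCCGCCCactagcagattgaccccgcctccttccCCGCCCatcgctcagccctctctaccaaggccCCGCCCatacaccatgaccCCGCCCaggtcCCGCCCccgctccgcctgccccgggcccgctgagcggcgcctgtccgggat
Rngtt: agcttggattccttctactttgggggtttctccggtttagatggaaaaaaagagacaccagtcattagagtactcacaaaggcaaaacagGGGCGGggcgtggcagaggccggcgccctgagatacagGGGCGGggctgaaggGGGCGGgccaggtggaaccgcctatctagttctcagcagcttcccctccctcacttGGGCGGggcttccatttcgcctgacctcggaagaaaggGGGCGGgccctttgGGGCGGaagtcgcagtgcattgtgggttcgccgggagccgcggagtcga

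The next pair, chosen after their values were seen as the largest lowered starts with a YY1 core inside the peak, are Cog4, a subunit of the Golgi tethering complex, at chr8:110846774-110847073 (plus strand), and Rpl35a, a large-subunit ribosomal protein, at chr16:33056264-33056563 (plus strand). The core is in capitals, written as CCATCTT where it lies on the other strand. In Cog4 it began 24 bases after the start and in Rpl35a at position -23, before it.
Cog4: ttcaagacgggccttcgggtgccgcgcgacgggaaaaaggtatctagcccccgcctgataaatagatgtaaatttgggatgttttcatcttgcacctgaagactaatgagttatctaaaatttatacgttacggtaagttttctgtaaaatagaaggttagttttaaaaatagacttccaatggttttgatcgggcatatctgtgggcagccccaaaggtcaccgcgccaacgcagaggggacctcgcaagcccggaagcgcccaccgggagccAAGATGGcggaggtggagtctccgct
Rpl35a: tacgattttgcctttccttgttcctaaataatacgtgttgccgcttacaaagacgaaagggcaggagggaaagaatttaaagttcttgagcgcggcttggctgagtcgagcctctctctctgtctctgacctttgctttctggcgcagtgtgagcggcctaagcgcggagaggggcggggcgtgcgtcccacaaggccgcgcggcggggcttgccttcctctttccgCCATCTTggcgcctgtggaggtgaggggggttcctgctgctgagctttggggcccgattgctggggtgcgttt

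Chosen in the same way for the ETS core, in capitals (CTTCCGG on the other strand), at positions -14 and -96 from the start, were Rps7, a small-subunit ribosomal protein, at chr12:28635904-28636203 (minus strand), and Dhx9, an RNA helicase, at chr1:153487611-153487910 (minus strand).
Rps7: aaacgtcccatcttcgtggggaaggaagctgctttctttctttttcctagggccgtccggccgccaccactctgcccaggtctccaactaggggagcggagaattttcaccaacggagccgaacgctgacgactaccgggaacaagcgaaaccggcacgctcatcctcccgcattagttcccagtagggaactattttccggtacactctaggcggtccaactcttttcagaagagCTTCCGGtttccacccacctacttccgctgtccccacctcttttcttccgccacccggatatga
Dhx9: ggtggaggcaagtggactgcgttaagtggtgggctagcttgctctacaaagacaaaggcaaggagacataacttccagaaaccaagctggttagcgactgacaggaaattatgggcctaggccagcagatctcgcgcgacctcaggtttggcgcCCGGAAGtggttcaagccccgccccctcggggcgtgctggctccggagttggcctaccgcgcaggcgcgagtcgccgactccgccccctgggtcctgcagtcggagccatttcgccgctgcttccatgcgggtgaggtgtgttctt

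The largest raised starts with a CCAAT box inside the peak, shown in capitals, were Cibar2 at chr8:120177420-120177719 (minus strand) and Gm14137 at chr2:119174259-119174558 (plus strand). The boxes lay at positions -140 and -121, upstream of the most frequent interval. The windows held 4 and 5 CpG, against 19 to 24 in the lowered starts shown above.
Cibar2: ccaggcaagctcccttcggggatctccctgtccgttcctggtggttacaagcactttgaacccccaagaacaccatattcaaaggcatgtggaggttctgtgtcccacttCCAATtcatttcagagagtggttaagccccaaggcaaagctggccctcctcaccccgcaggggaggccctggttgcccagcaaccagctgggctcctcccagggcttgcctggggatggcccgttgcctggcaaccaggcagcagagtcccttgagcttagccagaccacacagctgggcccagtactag
Gm14137: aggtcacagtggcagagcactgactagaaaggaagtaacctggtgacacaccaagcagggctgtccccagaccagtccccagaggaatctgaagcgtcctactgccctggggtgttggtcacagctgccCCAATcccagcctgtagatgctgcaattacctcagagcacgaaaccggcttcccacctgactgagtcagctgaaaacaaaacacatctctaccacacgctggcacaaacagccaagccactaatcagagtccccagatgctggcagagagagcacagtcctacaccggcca

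The values of these starts were apart in all libraries. Prex1 had 423, 500 and 519 in NTC and 241, 259 and 307 in #4, a log2 change of -0.84 ± 0.10 (limma SE, adjusted p = 8.88e-09). Cog4 had 464, 414 and 497 in NTC against 293, 298 and 289 in #4, a change of -0.64. Every #4 value was below every NTC value, and the 3 #4 libraries were close together. Rpl35a fell from 571, 673 and 728 to 474, 455 and 395, a change of -0.57. Rps7 went from 928, 1019 and 1098 to 626, 593 and 680, a change of -0.68, and Dhx9 from 1317, 1450 and 1522 to 927, 865 and 939, a change of -0.65. Cibar2 rose from 613, 633 and 572 to 1039, 1047 and 934, a change of 0.73. Gm14137, one of the strongest start peaks, rose from 5890, 5225 and 5287 to 7964, 8234 and 7911, a change of 0.56. In each case the #4 libraries did not reach the NTC range.

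Among gene-end peaks with a mean of at least 200, the largest rises were at Ermard, Zswim4, Ccdc57 and Jun. A peak at an end of Ermard (chromosome 17, 15090267 to 15090768 as deposited, GRCm38) went from 134, 111 and 104 to 339, 399 and 234, a log2 change of 1.44 ± 0.14 (adjusted p = 1.56e-11, limma). Replicate 3 of #4 was the lowest of its group but still above all NTC values. The peak at the 3 prime end of Zswim4 (chromosome 8, 84211113 to 84211614) went from 598, 655 and 691 to 1915, 1334 and 1069, a change of 1.11 ± 0.11. The spread within #4 was wide here too, with replicate 1 highest. At the 3 prime end of Jun, an AP-1 subunit and immediate early gene, the peak at chromosome 4, 95048163 to 95048664, rose from 896, 799 and 688 to 1743, 1525 and 1275, a change of 0.93 ± 0.08 (adjusted p = 1.79e-12). The start of Ccdc57 rose from 197, 183 and 220 to 428, 418 and 349, a change of 0.99. Besides Prex1, the largest falls were at Rngtt (428, 588 and 571 to 310, 325 and 286, a change of -0.77), at an end of Snrpb, a core protein of spliceosomal snRNPs (892, 1008 and 989 to 597, 477 and 620, -0.78), and at the start of 2410002F23Rik (-0.77). In these peaks no #4 library overlapped NTC.

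Inside genes, the peak with the largest rise was in Prkcz, an atypical protein kinase C (chromosome 4, 155267896 to 155268397), from 186, 210 and 152 to 433, 453 and 410, a log2 change of 1.25 ± 0.11 (adjusted p = 2.05e-12, limma). The 3 #4 values were close together, and the lowest was well above the highest NTC value. Peaks in Ptprg, a receptor tyrosine phosphatase, Kcnq1, a potassium channel, and Tbcd, a tubulin-folding cofactor, rose by 1.18, 1.18 and 1.16. The largest falls were in Cyp7b1, an oxysterol hydroxylase (241, 258 and 286 to 115, 138 and 169, a change of -0.91), Fam83c (-0.87), Nlrc5, the activator of MHC class I genes (841, 883 and 775 to 413, 494 and 510, -0.82), and Dusp16, a phosphatase of stress-activated kinases, at an inner start (-0.79). The Nlrc5 peak at chromosome 8, 94456042 to 94456543, lay 21957 bases from the nearest gene end.

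Between genes, rises were largest next to the gene-end peak of Ermard (1.25), which it adjoins, and near Prcp, a lysosomal carboxypeptidase (1.18), Bloc1s4, a subunit of a complex for lysosome-related organelles (1.14), and Frmd8 (1.12). The Bloc1s4 peak was even across libraries, from 188, 214 and 199 to 418, 442 and 468. The Frmd8 peak was not: it went from 482, 379 and 406 to 1338, 1018 and 555, so that replicate 3 of #4 lay nearer to NTC than to replicate 1. The largest falls were near Cdkn1b, a cyclin-dependent kinase inhibitor (333, 342 and 391 to 228, 195 and 146, a change of -0.92), Adam24 (305, 297 and 344 to 176, 173 and 162, -0.88), Ankrd12 (-0.84) and Cav2, a caveolin (-0.82). The groups did not overlap at these peaks. The Cdkn1b peak (chromosome 6, 134927256 to 134927757) lay 1981 bases from an end of the gene. The 6 named peaks over 50 kb from any gene moved by between -0.85 and 0.94.

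Summed over dense clusters of distal peaks (5 or more joined where their centres lay less than about 13 kb apart), the rise was more frequent than in single peaks. Of 2597 clusters, 1267 were higher (48.8%) and 261 lower (10.1%), and the median log2 change was 0.10. Clusters of 5 to 9 peaks were higher in 46.1%, those of 10 to 19 in 59.8%, and the 48 with 20 or more in 81.3% (39 clusters). With equal totals these shares were 31.7%, 43.8% and 60.4%. Strength of the members moved with this too, since clusters in the weakest quartile by mean strength were higher in 23.2% and those in the strongest in 74.0%. A sum over many peaks is also measured more precisely than a single peak. The largest rise was in a cluster of 7 peaks near Ifrd1, a transcriptional coregulator (chromosome 12, 40205414 to 40215871), whose sum went from 688, 702 and 662 to 1588, 1254 and 988, a change of 0.87 ± 0.10 (adjusted p = 2.09e-07, limma over clusters). All 7 peaks were higher, and replicate 3 of #4 was again the lowest of its group. Clusters near Rcor1, a subunit of the CoREST corepressor, Setd3, a histidine methyltransferase of actin, and Hs6st2, a heparan sulfate sulfotransferase, rose by 0.70, 0.68 and 0.63. A cluster of 5 peaks at Gas7 fell from 1644, 1443 and 1473 to 897, 920 and 1096 (-0.65), with all 5 peaks lower, and one at Cav2 from 1287, 1397 and 1420 to 937, 883 and 930 (-0.58). The clusters near Nfatc3 (-0.53) and near Btn2a2 and H4c8 (-0.47) followed.

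Summed over genes with 5 or more assigned peaks, 2038 of 4926 loci were higher (41.4%) and 731 lower (14.8%). With equal totals the counts were 1248 higher and 1451 lower, so the overall balance of loci depended on the scaling. The direction of the 8 named loci did not. Rbms3, an RNA-binding protein (7 peaks over 981 kb of chromosome 9), went from 646, 680 and 577 to 1048, 1119 and 1013, a log2 change of 0.74 ± 0.08 (adjusted p = 5.35e-09, limma over loci), with all 7 peaks higher. Rars2, a mitochondrial arginyl-tRNA synthetase, rose by 0.64, Tex14 by 0.57 and Ggt7 by 0.54. Tex14 is the strongest of these loci, at 17401, 15950 and 15217 in NTC and 26024, 23695 and 22635 in #4. Cdh2, which encodes N-cadherin, the adhesion protein of mesenchymal cells, fell from 1198, 1137 and 1012 to 803, 717 and 770, a change of -0.55 ± 0.07 (adjusted p = 1.94e-07), with 6 of its 8 peaks lower. Dhx9 fell by 0.51 on the log2 scale from 1817, 1919 and 1972 to 1366, 1292 and 1350, and most of its signal was the start peak shown above. Fermt1, an integrin-binding kindlin, and Cyp21a1, the steroid 21-hydroxylase, fell by 0.47 and 0.42.

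**Figure D5:**
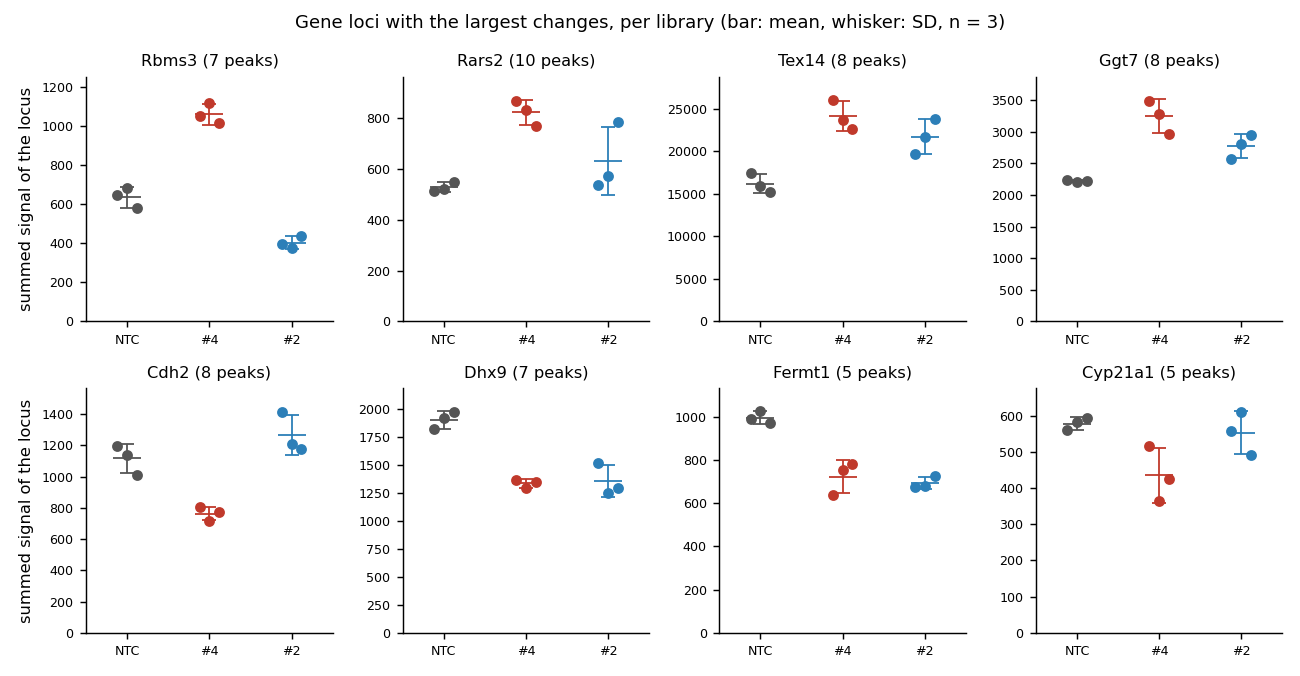
Summed signal of the 4 raised (top) and 4 lowered (bottom) gene loci with the largest changes in shMed1 #4 against NTC, per library of NTC, #4 and #2. Points are libraries, bars are means and whiskers SDs (n = 3); the #4 libraries of Rbms3 lie at 1013 to 1119, above NTC, while those of #2 lie below NTC.

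In windows of 1 Mb the changes were shallower. Of 1894 windows with 5 or more peaks, 901 were higher (47.6%) and 156 lower (8.24%), with a median log2 change of 0.05. With equal totals 391 were higher and 606 lower. The longest run of adjacent higher windows covered 11 Mb of chromosome 15, from 76 to 87 Mb. The largest rises were in windows of chromosome 12 from 92.7 Mb (0.60) and from 95.5 Mb, where Flrt2 lies (0.56), and in the window of chromosome 9 from 117 Mb that holds part of Rbms3 (0.53). The largest fall was in the window of chromosome 18 from 16.2 Mb that holds Cdh2 (-0.48), followed by chromosome 6 from 123 Mb (-0.44). Whole chromosomes moved little: the share of all signal on a chromosome in #4 ranged from 97.8% (chromosome 10) to 103% (chromosome 15) of its share in NTC.

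Genes were also grouped in 17 lists, chosen with earlier results of these data known. Read against 17.3% higher and 12.1% lower over all peaks, the 440 peaks assigned to 32 integrin and focal adhesion genes had 129 higher (29.3%) and 24 lower (5.45%), with a median log2 change of 0.08. Actn1, an actin crosslinker, had a peak that rose from 1651, 1473 and 1570 to 2692, 2709 and 2561, a change of 0.76 ± 0.06 (adjusted p = 5.55e-15, limma). A peak near Itga5, the fibronectin receptor subunit, fell by 0.46 on the log2 scale. Extracellular matrix genes had 83 higher and 28 lower of 315, with a peak near Tgfbi, a secreted adhesion protein, at 0.53 and one in Col1a1, a collagen chain, at -0.61. Of 127 peaks of inflammatory and NF-kappaB genes 39 were higher (30.7%) and 13 lower, with the cytokine gene Lif at 0.45 and Csf1, the macrophage growth factor, at -0.64. AP-1 and immediate early genes had 39 higher and 17 lower of 143, TGF-beta and BMP genes 55 and 19 of 211, and YAP and TEAD genes 62 and 22 of 224. A peak in Mafk, a small Maf partner of AP-1-like factors, rose by 0.59, one at an end of Skil, a repressor of SMAD signalling, by 0.59, and one in Tead4 by 0.67. Their start peaks had 1 higher and 7 lower of 15, 0 and 4 of 16, and 5 and 4 of 21, against 15.1% higher and 24.8% lower over all start peaks. With equal totals the integrin list still had 101 higher and 39 lower and the matrix list 66 and 41. The AP-1 list then had 30 and 25 and the inflammatory list 24 of each, against 12.3% higher and 19.7% lower over all peaks.

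Lists of housekeeping and cycling genes leaned the other way. Cytosolic ribosomal protein genes had 46 lower (31.9%) and 12 higher of 144 peaks, and 24 of their 37 start peaks were lower, with a median of -0.25, against 24.8% lower and a median of -0.05 over all start peaks. Rps4x had the smallest p, with its start going from 674, 726 and 813 to 404, 398 and 517, a log2 change of -0.75 ± 0.10 (adjusted p = 1.88e-08, limma). All 3 #4 values were below the NTC range. Cell cycle and replication genes had 26 lower (17.2%) and 15 higher of 151, with the start of Top2a, a DNA topoisomerase, at -0.48 and a peak assigned to E2f2, a cell cycle transcription factor, at 0.73. The Mediator list had 23 higher and 19 lower of 142, and 11 of its 25 start peaks were lower and 2 higher, against 24.8% and 15.1% over all start peaks. The start of Med22 fell from 1802, 2070 and 2116 to 1526, 1396 and 1340, a change of -0.49. Nuclear receptor genes, the partners of MED1, stood near the background, with 32 higher and 25 lower of 196, a peak in Ppard at 0.64 and the start of Nr1h2 at -0.48. Heat shock genes had 21 higher and 15 lower of 94. Among them was the steepest rise named, a peak 2329 bases from an end of Dnajb1, a co-chaperone, that went from 79.7, 83.0 and 63.6 to 371, 240 and 183, a change of 1.74 ± 0.16 (adjusted p = 2.35e-12). Mesenchymal genes had 37 higher and 23 lower of 165, dormancy-linked genes 30 and 21 of 130, and epithelial genes 16 and 19 of 128. The balance of several lists turned with equal totals, as did that of all peaks (12.3% higher and 19.7% lower). Nuclear receptor genes then had 25 higher and 44 lower, Mediator genes 16 and 26, and heat shock genes 15 and 24. Mesenchymal genes had 26 and 30 and dormancy-linked genes 21 and 31. Marker lists of other cell types had 3 higher and 2 lower of 24 (blood), 2 and 5 of 48 (endothelium) and 7 and 2 of 46 (neural).

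The targeted gene and its complex partner were looked at apart from any ranking. The start of Med1 had 2066, 2141 and 2134 in NTC and 2013, 1887 and 2014 in #4, a log2 change of -0.10 ± 0.05 with an adjusted p of 0.136 (limma). All #4 values were below all NTC values, and with equal totals the change was -0.17 with an adjusted p of 0.00803. The start of Med4 had 687, 687 and 701 in NTC and 574, 464 and 598 in #4, a change of -0.35 ± 0.08 (adjusted p = 0.00094). The peak inside Med1 and the peak 35074 bases from an end of Med4 had adjusted p of 0.765 and 0.475.

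The hairpins were compared by the direct contrast of #4 with #2, since both share the NTC libraries. Of the 22302 called peaks, 6288 differed between #4 and #2 in that contrast. Over all tested peaks, 8.48% were higher and 13.0% lower in #4 than in #2. Among the higher peaks 2535 were above #2 and 2114 below it, and among the lower peaks 1418 were below #2 and 221 above it. The called and named peaks were chosen by their #4 values, which the contrast uses again, so these counts favour larger changes under #4. A p that misses the threshold does not show that the hairpins act alike at the other peaks. Some of the named changes were larger under #4 and others under #2. The Prkcz peak changed by 1.25 under #4 and 0.27 under #2, and the Nlrc5 peak by -0.82 and -0.12. In both the difference passed the test (adjusted p = 2.39e-09 and 9.58e-10, limma). The Tead4 peak changed by 0.67 under #4 and 0.96 under #2, and that difference passed too (adjusted p = 1.7e-04, limma). At the Cdh2 locus the changes were -0.55 and 0.18, and at Rbms3 0.74 and -0.65. Rbms3 had 396, 374 and 438 in the #2 libraries, below all NTC values, so the locus moved in opposite directions under the hairpins against the same control. By class, the median of strong distal peaks minus that of strong start peaks, on the log2 scale, was -0.34, -0.38 and -0.41 in NTC, -0.21, -0.18 and -0.20 in #4, and -0.13, -0.08 and -0.03 in #2. These 3 ranges did not overlap. Of the strong distal peaks, 7.91% were higher and 25.2% lower in #4 than in #2 by the direct contrast.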

How the data were processed

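ATAC-seq signal was compared between 3 NTC and 3 shMed1 #4 libraries, with 3 shMed1 #2 libraries in the same fit. The authors deposited 1 table of signal per peak (75936 peaks of 501 bases, GRCm38, counted from 0 or 1 not stated), whose values step as whole reads scaled library by library would. Trim Galore, BWA, MACS2, featureCounts and Subread are named in the submitters' processing notes, with mm10, and no versions are used here.

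Peaks with a mean of at least 10 were tested with limma 3.58.1 (R 4.3.3, trend, log2(value + 1), group means from 9 libraries, Benjamini-Hochberg, threshold 0.05), a procedure tested on simulated data. Fold changes are on that log2 scale, which understates changes of low peaks. Peaks were assigned to the nearest protein-coding gene of the RefSeq table (GRCm38.p6), as a label of position only. Summed clusters, loci and windows were fitted in the same way, and shares of signal by exact permutation. Named peaks were the 4 largest changes in each direction per position class (3 beyond 50 kb) with all libraries apart and a mean of at least 200, plus the smallest p in each direction per list. Members and lists were chosen with earlier results of these data known.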

Additional observations from a re-analysis of the deposited data

Results flagged for a closer look

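At 23 of the peaks and sums named by size of change, the change against NTC differed between the hairpins. The test was the direct limma contrast of #4 with #2 (log2, adjusted p under the 0.05 threshold). Values are #4 minus #2. Peaks named only from the gene lists are not counted here, and several of them also passed, such as Actn1 at 0.57 and Tead4 at -0.29. The peaks and sums were named by their change under #4, and the contrast uses those #4 values again. Of the peaks above #2, Prkcz stood at 0.97, Prcp at 0.43, Jun at 0.32, Tbcd at 0.32 and the far peak of chromosome 2 at 0.35. Of those below #2, the Adam24 peak stood at -0.97, Cyp7b1 at -0.77, Nlrc5 at -0.70, Cav2 at -0.40, Fam83c at -0.37 and the far peak of chromosome 10 at -0.59. Among clusters, Hs6st2 stood at 0.26 and Gas7 at -0.34. Among loci, Rbms3 stood at 1.40, Rars2 at 0.40, Ggt7 at 0.22, Tex14 at 0.15, Cyp21a1 at -0.35 and Cdh2 at -0.73. Among windows, that of Rbms3 stood at 0.96, that of Flrt2 at 0.34, that of Cdh2 at -0.56 and that of chromosome 6 with Clec4d at -0.29.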

How the results depend on the processing

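The counts in each direction moved with the scaling, with the library left out and with how units were built. With equal totals, 14938 peaks were lower, start peaks stood at 669 higher and 3229 lower, lower calls at 930 among strong distal and 7113 among weak distal peaks, 515 clusters were lower, loci stood at 1248 and 1451, and windows at 391 and 606. Quantile scaling gave 480 and 3221 starts, 923 lower strong distal peaks, 1136 lower loci, and 478 higher and 477 lower windows, and cyclic loess 494 and 3249 starts and 1010 lower strong distal peaks. The bottom-decile share then changed sign, to 0.013 (quantile) and 0.015 (cyclic loess). The cause was not tested. By construction of the units, clusters joined within 5 kb had 138 higher and 37 lower, windows of 500 kb 1368 and 355, and loci of 3 or more peaks 1688 lower. The higher count of such loci stayed within 1.5 times that for 5 or more peaks. Each of these settings also changes how many units were tested, so the counts alone do not show a change in the share called. The peak inside Med1 went to -0.0082 with equal totals, and from -0.0047 (without NTC replicate 3) to 0.12 on leaving out 1 library.

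Leaving out 1 library gave 10273 to 12418 higher and 5500 to 8113 lower peaks, 266 to 435 lower strong distal and 2432 to 3957 lower weak distal peaks, and -0.020 to 0.028 percentage points for the share over 200 kb from genes. Lower calls among strong distal peaks fell to 266 without NTC replicate 2 and to 282 without NTC replicate 3.

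The replicate block gave 12678 higher and 8608 lower peaks. Same-numbered NTC and #4 libraries deviated together by r of 0.03, -0.00049 and 0.02, and not every library correlated best with its own number. Deviations from a group mean are tied to each other, so these values cannot show whether same-numbered libraries were prepared together. A count test was not run. All deposited values lay within 0.01 of a whole number of steps, but the lowest stood for 2 to 3 reads. Whole reads were therefore taken as estimates only. A pseudocount of 5, no filter, a mean of at least 50 and a fit of the 6 libraries alone kept every count within 1.5 times.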
